A study of Sus scrofa with 6 samples.

Results

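A group of 10 genes whose products make, bind, sense or cut hyaluronan was followed in pig ear cartilage cells given an agonist of the nuclear receptor PPARD: ACAN, VCAN, HAPLN1, HAPLN3, HAS1, HAS2, HAS3, CD44, HYAL1 and HYAL2. They were taken by name from 19670 gene models. Of the 10, 8 were found by the symbol of their model and HYAL1 by its protein name, so that 9 have values. HAS3 is not analysed here. The HYAL1 model carries the symbol NAA80 in the gene name table and the pig hyaluronidase-1 protein in the deposited annotation, so its values are uncertain.

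Hyaluronan is a long unbranched sugar chain that HAS enzymes spin out through the cell membrane. In cartilage, aggrecan molecules attach to it in large numbers through a head domain, and link proteins lock that attachment. The charged sulfate chains of aggrecan draw in water, which gives the tissue its resistance to compression. Versican is built on the same plan and is known from embryonic, vascular and fibroblastic matrix. CD44 holds hyaluronan at the cell surface, and hyaluronidases cut it.

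The tested cells were primary cells freed by enzymes from the external ear (auricular) cartilage of 1 pig aged 4 months, a Duroc × (Landrace × Large White) hybrid with wild-type PPARD. The 3 GW0742 libraries come from such cells after 24 h with GW0742, the PPARD agonist, and the 3 DMSO libraries from the same kind of cells with DMSO, the solvent. The question behind the comparison is what PPARD does to cartilage of the outer ear. All libraries come from 1 pig and no label says that the cultures were separate, so the spread behind each p-value may be technical. The libraries held between 13133980 and 16913745 estimated reads.

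The cells carried some cartilage markers and lacked others. COL2A1, the main collagen of cartilage, stood at 108 ± 4.16 RPKM with GW0742 and 114 ± 4.86 RPKM with DMSO (SD, n = 3 each). RPKM is the authors' number of reads scaled to model length and library size. MATN1, a matrix protein of mature cartilage, stood at 0.070 ± 0.027 and 0.068 ± 0.011 RPKM. CNMD, an inhibitor of vessel growth in cartilage, was listed at 0 in GW0742 replicate 1 and in the 3 DMSO libraries. Of the other chondrocyte markers with a model, COL11A1 averaged 138 RPKM over all 6 libraries, COMP 34.7, SNORC 9.91 and SOX9 9.43. On the same scale, COL11A2 averaged 6.63, COL9A2 5.81, SOX5 3.45, MATN3 1.33 and COL9A1 0.48 RPKM. COL1A2, a fibroblast collagen, stood at 6416 ± 301 RPKM with GW0742 and 7108 ± 297 RPKM with DMSO. In bulk RNA, fewer cells of a type and less RNA per cell cannot be told apart.

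Aggrecan and CD44 were the abundant genes of the group, and HAS1 was close to its detection floor. Mean RPKM over all 6 libraries ran in the order CD44, ACAN, VCAN, HYAL2, HAPLN3, HAS2, HYAL1, HAPLN1 and HAS1. VCAN and HYAL2 overlapped in both groups and did not differ beyond their spread, and CD44 and ACAN overlapped among the DMSO libraries, where ACAN averaged 105 ± 5.56 RPKM and CD44 102 ± 5.08 RPKM. The place of VCAN depends on the length used, since its RPKM values imply 45.5% of its listed 12562 bases on average. Per kilobase of listed length, VCAN averaged 9.44 CPM with GW0742 and 9.56 CPM with DMSO, below HYAL2 at 19.2 CPM with GW0742 and 19.4 CPM with DMSO. Over all 6 libraries, ACAN lay above 95.8% of all models in RPKM, VCAN above 80.9%, HAS2 above 58.8%, HAPLN1 above 42.0% and HAS1 above 18.2%.

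**Figure D1:**
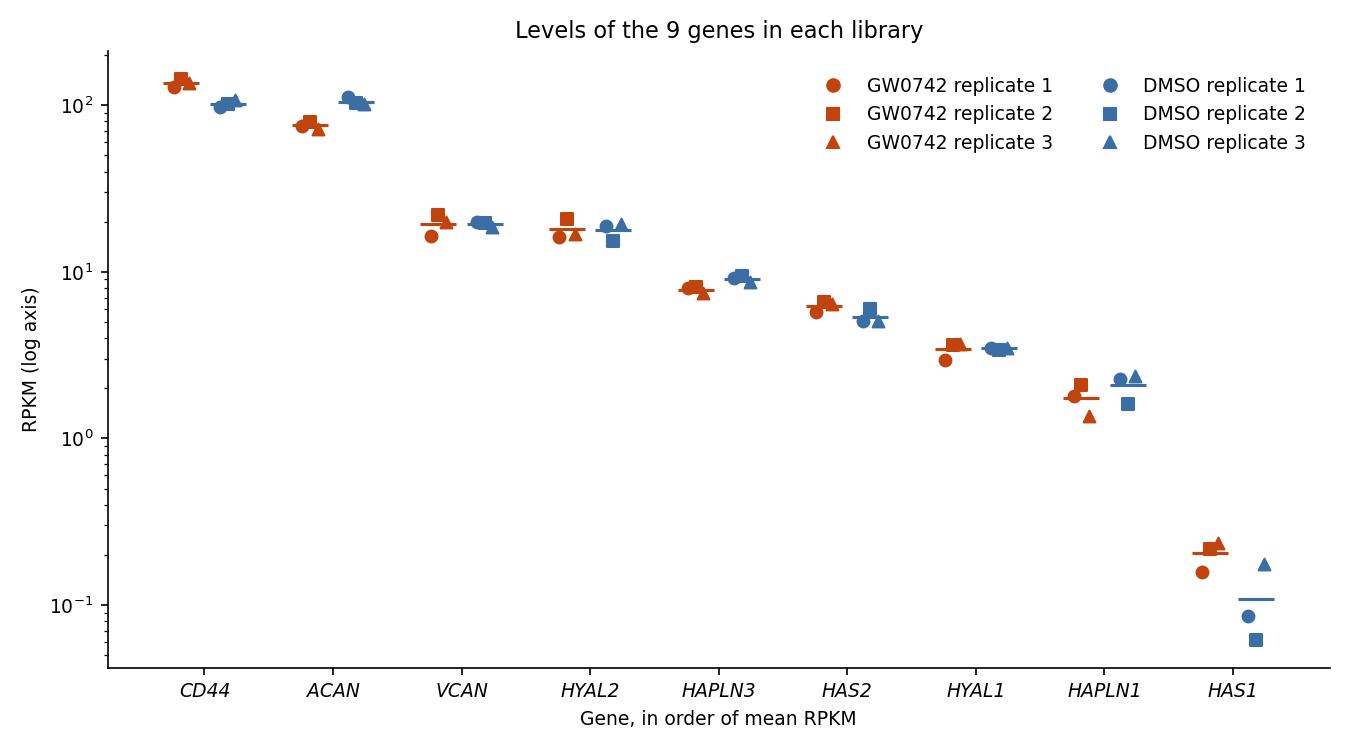
RPKM (log axis) of the 9 genes in each library, in order of their mean over all libraries, with GW0742 in orange left of DMSO in blue; short lines are group means. ACAN sits between 72.5 and 79.1 RPKM with GW0742 and between 101 and 112 RPKM with DMSO, and HAS1 below 0.24 RPKM in every library.

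With GW0742, ACAN fell, and no other tested gene of the group passed the test in either direction. The test was the quasi-likelihood F-test of edgeR on rounded estimated counts, with p-values adjusted over 14146 models and a threshold of 0.05. It called 1 of the 8 tested genes lower, against 0.0778% of all tested models, and none higher, against 0.184%. HAS1 was too low to test. At an unadjusted p under 0.05 the genes were ACAN, HAPLN3 and CD44, a level that 16.8% of all models reached. The same 3 were those whose groups did not overlap in CPM, reads scaled to library size alone: 2 lower, against 12.1% of all models, and 1 higher, against 11.4%, or 23.4% in either direction. The median log2 fold change of the 8 genes was -0.028, and that of all tested models -0.0015.

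ACAN, the core protein of aggrecan (ENSSSCG00000001832), stood at 75.6, 79.1 and 72.5 RPKM in GW0742 replicates 1, 2 and 3, against 112, 103 and 101 RPKM in DMSO replicates 1, 2 and 3. Each GW0742 library lay below each DMSO library. The values rest on 7608 to 14366 estimated reads per library, the deepest counts of the group. On the CPM scale the means were 576 ± 16.4 with GW0742 and 816 ± 34.1 with DMSO (SD, n = 3 each). The log2 fold change was -0.50 ± 0.06 (SE, edgeR adjusted p = 0.0185), with a 95% interval of -0.63 to -0.37, which is a change of -29.3%. By p-value ACAN ranked 12 of the 14146 models.

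The size of the fall moved little between settings, while its call did not always hold. Leaving out 1 library gave log2 values of -0.53 to -0.47. The edgeR adjusted p was then 0.105 without GW0742 replicate 1, 0.101 without DMSO replicate 1 and 0.0815 without DMSO replicate 3. The call was lost in these 3 fits, where 0 of all models were called lower, against 11 with all libraries. It was also lost in limma on log2(RPKM + 1) (log2 -0.47, adjusted p = 0.0648). DESeq2 gave an adjusted p of 3.49e-14. It called 1 of the 8 genes, ACAN, against 2.91% of its 14583 models in either direction and 1.56% lower.

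**Figure D2:**
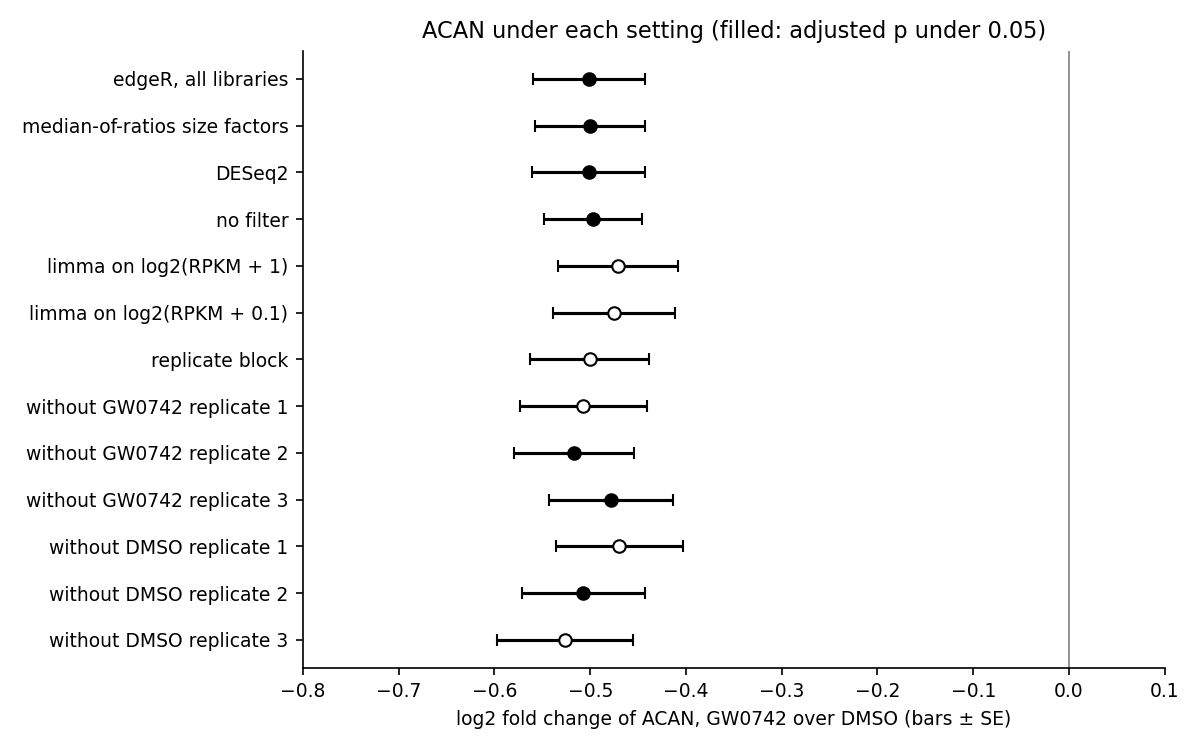
The log2 fold change of ACAN, GW0742 over DMSO (points, with bars for ± SE), under edgeR with all libraries and under 12 alternatives; filled points have an adjusted p under 0.05. All values lie between -0.53 and -0.47, and 6 of the 12 alternatives lose the call.

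VCAN, the core protein of versican (ENSSSCG00000014136), showed no shift that these libraries resolve. It stood at 16.4, 21.9 and 19.9 RPKM in GW0742 replicates 1, 2 and 3, against 20.0, 19.6 and 18.5 RPKM in DMSO replicates 1, 2 and 3. The GW0742 libraries held both the lowest and the highest value and spanned the whole DMSO range. The log2 fold change was -0.017 ± 0.10 (SE, edgeR adjusted p = 0.956), with a 95% interval of -0.25 to 0.22. A fall of the size seen for ACAN lies outside that interval.

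The ratio of ACAN to VCAN RPKM within a library was lower in every GW0742 library than in any DMSO library. It was 4.59, 3.61 and 3.64 in GW0742 replicates 1, 2 and 3, against 5.59, 5.25 and 5.48 in DMSO replicates 1, 2 and 3, without overlap. The mean log2 ratio differed by -0.47 (GW0742 minus DMSO). An exact two-sided permutation test gave p = 0.1, the smallest p that this test can give with 3 against 3 libraries, so it cannot reach 0.05 here. The level of the ratio also depends on the VCAN length: per kilobase of listed length, ACAN averaged 81.4 CPM with GW0742 and 115 CPM with DMSO, against the VCAN values on that scale given above.

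The link proteins, which clamp aggrecan and versican heads onto hyaluronan, both had log2 values below 0, and neither passed. HAPLN3 (ENSSSCG00000030597) was the more abundant, at 7.95, 8.11 and 7.45 RPKM in GW0742 replicates 1, 2 and 3, against 9.24, 9.38 and 8.67 RPKM in DMSO replicates 1, 2 and 3. All GW0742 libraries lay below all DMSO libraries. Its log2 fold change was -0.24 ± 0.07 (SE, edgeR adjusted p = 0.167), with a 95% interval of -0.41 to -0.07. HAPLN1 (ENSSSCG00000014137), the link protein first known from cartilage, stood at 1.79, 2.10 and 1.36 RPKM with GW0742, against 2.29, 1.61 and 2.37 RPKM with DMSO. Its groups overlapped through DMSO replicate 2, and it rested on 81 to 155 reads per library. Its log2 fold change was -0.29 ± 0.20 (SE, edgeR adjusted p = 0.517), with a wide interval of -0.75 to 0.18. It was -0.14 without GW0742 replicate 3, -0.18 without DMSO replicate 3 and -0.43 without DMSO replicate 2.

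Aggrecan exceeded the sum of both link proteins several-fold in each library. The ratio of ACAN to summed HAPLN1 and HAPLN3 RPKM was 7.76, 7.74 and 8.23 in GW0742 replicates 1, 2 and 3, against 9.68, 9.37 and 9.18 in DMSO replicates 1, 2 and 3. The ratio was lower in each GW0742 library than in any DMSO library, and it was not tested because it was chosen after the values were seen. In the RefSeq annotation of assembly Sscrofa11.1, ACAN and HAPLN3 are direct neighbours, as are VCAN and HAPLN1, and HYAL1 and HYAL2. Of these pairs, ACAN and HAPLN3 overlap in that annotation and the others do not. It is a later assembly than the one the tables use, where the overlap was not measured. The library protocol does not describe strand marking, so it is not known whether reads from an overlap of ACAN and HAPLN3 were told apart. The part of such reads in the HAPLN3 values and in this ratio was not tested.

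Among the hyaluronan synthases, HAS2 stood well above HAS1. HAS2 (ENSSSCG00000005992), the main synthase of connective tissue, stood at 5.76, 6.55 and 6.42 RPKM in GW0742 replicates 1, 2 and 3, against 5.10, 6.0 and 5.04 RPKM in DMSO replicates 1, 2 and 3. The groups overlapped, since DMSO replicate 2 lay above GW0742 replicate 1. The log2 fold change was 0.19 ± 0.12 (SE, edgeR adjusted p = 0.44), with a 95% interval of -0.07 to 0.46.

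HAS1 (ENSSSCG00000003239) had 5, 8 and 8 estimated reads in GW0742 replicates 1, 2 and 3, against 3, 2 and 7 reads in DMSO replicates 1, 2 and 3. The groups overlapped, and DMSO replicates 1 and 2 were at or under a floor of 3 reads, which is 0.178 to 0.230 CPM per library and covers counting error only. A difference in HAS1 was not detectable at this depth.

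CD44, the main cell surface receptor of hyaluronan (ENSSSCG00000013297), stood higher in every GW0742 library than in any DMSO library, by an amount that depended on the unit. In RPKM it was 129, 144 and 135 in GW0742 replicates 1, 2 and 3, against 97.2, 103 and 107 in DMSO replicates 1, 2 and 3, a ratio of means of 1.33. In CPM it was 149, 165 and 147 with GW0742, against 128, 132 and 144 with DMSO. The edgeR fold was 1.14 (log2 0.19 ± 0.07 SE, adjusted p = 0.238), with a 95% interval of 0.03 to 0.36. Limma on log2(RPKM + 1) gave a log2 value of 0.41 (adjusted p = 0.0969), so CD44 passed on neither scale.

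The gap between the units can be written as a change in the length implied for CD44, since that length is computed from both values. Estimated reads divided by RPKM and by depth give the length that the authors' RPKM implies for a model. In all 14702 models with 1 transcript and reads in every library, that length varied by under 1% between libraries. CD44 is summed over 13 transcripts, and cells are known to splice it into many forms. Its implied length was 1071, 1098 and 1006 bases in GW0742 replicates 1, 2 and 3, against 1232, 1167 and 1236 bases in DMSO replicates 1, 2 and 3, without overlap. Among 1766 tested models with more than 1 transcript, 9.8% were higher without overlap, 9.12% lower, and 2.66% lower by at least as much as CD44. VCAN, with 9 transcripts, had overlapping implied lengths of 5768, 6034 and 5373 bases with GW0742 and 5835, 5251 and 6067 bases with DMSO. Which transcripts gained or lost reads was not tested, since the values are summed per model, and this measure was chosen after the values were seen.

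**Figure D3:**
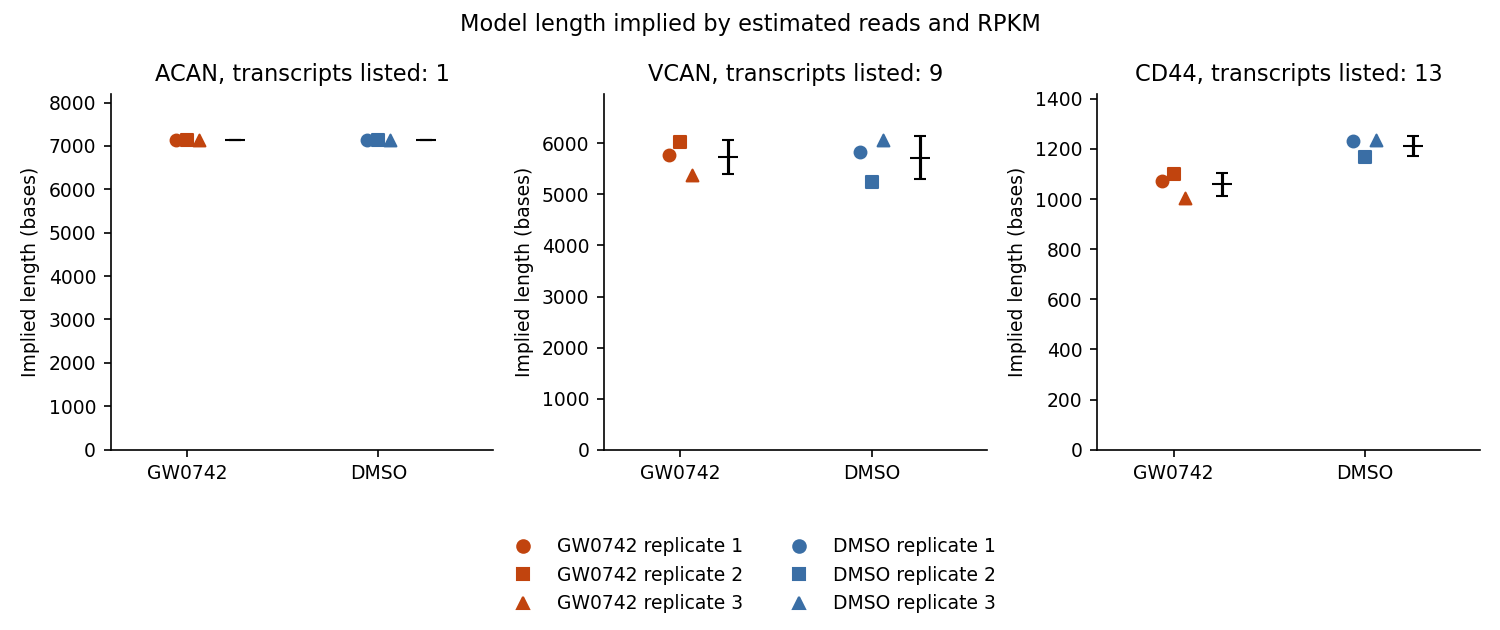
Length in bases implied by the deposited estimated reads and RPKM values, for ACAN, VCAN and CD44, by library (points; black bars are mean ± SD), with GW0742 left of DMSO. ACAN is flat at 7137 to 7138 bases, VCAN overlaps between the groups, and CD44 lies between 1006 and 1098 bases with GW0742 and between 1167 and 1236 bases with DMSO.

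The order of CD44 and ACAN also turned on this length. By RPKM, CD44 averaged 136 ± 7.87 and ACAN 75.7 ± 3.27 with GW0742. Per kilobase of the listed model length (2551 bases for CD44, 7081 for ACAN), CD44 averaged 60.3 ± 4.00 CPM and ACAN 81.4 ± 2.31 CPM in the same libraries. In the DMSO libraries the listed-length values were 52.8 ± 3.28 CPM for CD44 and 115 ± 4.81 CPM for ACAN. Which of both genes was higher in the GW0742 libraries therefore cannot be given without the scale.

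The hyaluronidases had log2 values close to 0. HYAL2 (ENSSSCG00000011405), which sits at the cell surface and starts the breakdown of long chains, stood at 16.2, 20.8 and 17.0 RPKM in GW0742 replicates 1, 2 and 3, against 18.8, 15.4 and 19.3 RPKM in DMSO replicates 1, 2 and 3. The groups overlapped, and the SD within each group exceeded the difference of their means. The log2 fold change was -0.013 ± 0.11 (SE, edgeR adjusted p = 0.969), with a 95% interval of -0.27 to 0.24. The HYAL1 model (ENSSSCG00000011404), a lysosomal hyaluronidase by its protein name, stood at 2.96, 3.65 and 3.69 RPKM with GW0742, against 3.50, 3.41 and 3.50 RPKM with DMSO. GW0742 replicate 1 was the lowest of the 6 and the other GW0742 libraries the highest. Its log2 fold change was -0.040 ± 0.15 (SE, edgeR adjusted p = 0.925), with an interval of -0.39 to 0.31, on 65 to 98 reads per library.

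**Figure D4:**
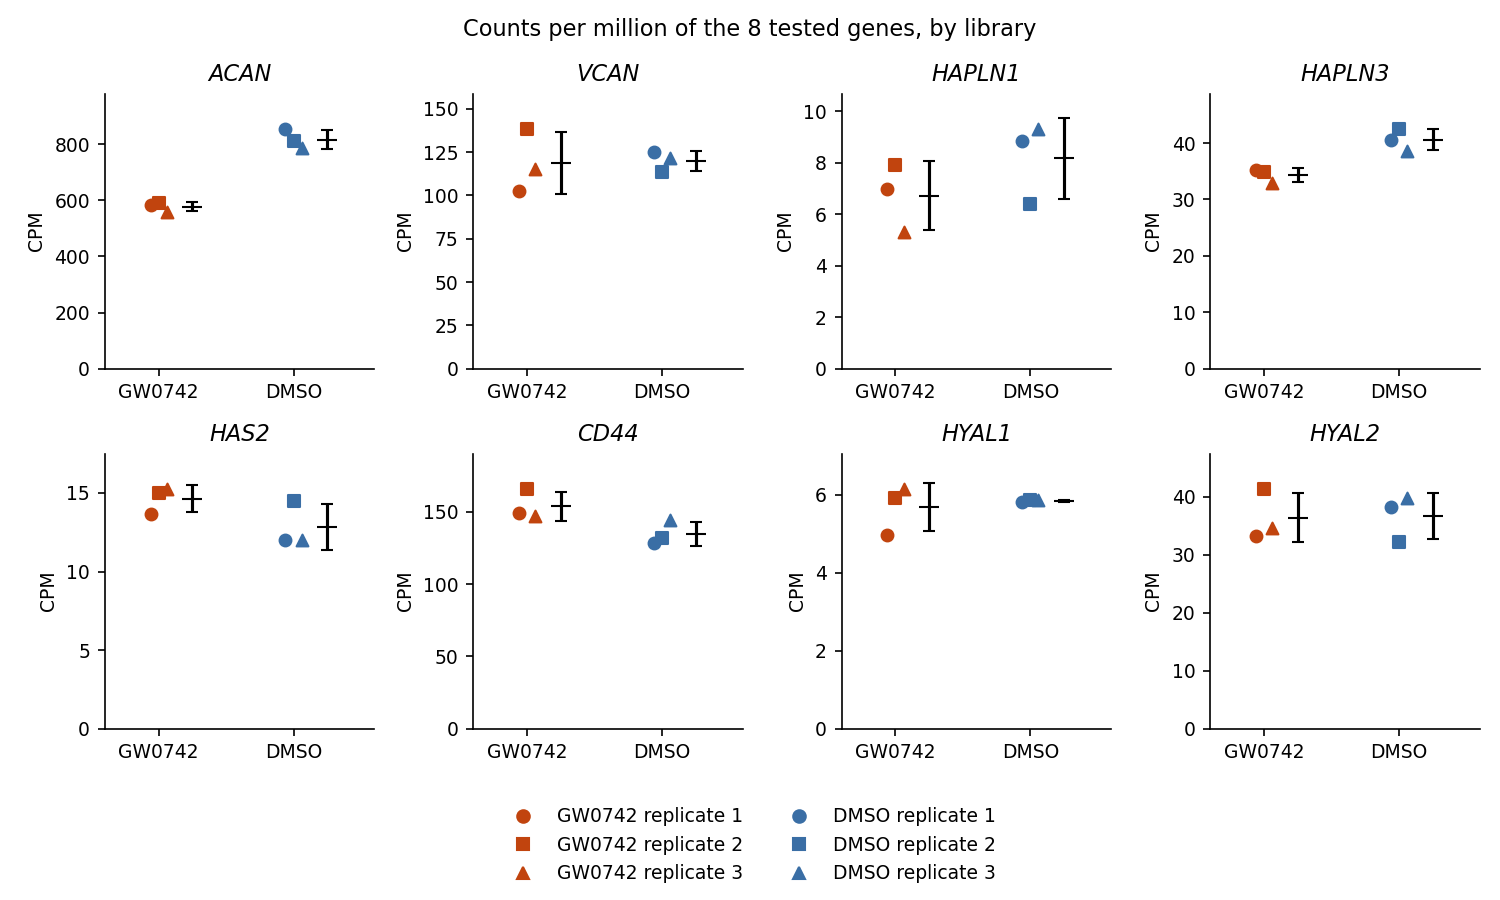
CPM (TMM-scaled library sizes) of the 8 tested genes in each library (points; black bars are mean ± SD, n = 3), with GW0742 left of DMSO and all axes from 0. ACAN (576 against 816 CPM on average) and HAPLN3 lie lower with GW0742 and CD44 higher without overlap, and the other 5 genes overlap between the groups.

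Genes around this group were read from 5 fixed lists, and none of their tested members passed in edgeR. Other hyaluronan binders had 7 tested of 14 with a model, with a median log2 value of 0.23. PTX3, a pentraxin that helps crosslink hyaluronan, stood at 9.64, 8.71 and 9.98 RPKM with GW0742, against 7.08, 7.82 and 7.31 RPKM with DMSO (log2 0.33 ± 0.10 SE, edgeR adjusted p = 0.177). The groups did not overlap. TNFAIP6, which moves heavy chains onto hyaluronan, averaged 2.09 ± 0.70 RPKM with GW0742 and 2.32 ± 0.68 RPKM with DMSO, and HMMR, a hyaluronan-binding protein of dividing cells, 6.43 ± 0.74 and 6.32 ± 0.35 RPKM. The direction for HMMR differs by unit, since its edgeR log2 value was -0.17 ± 0.11 (SE, adjusted p = 0.487).

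The other breakdown genes reported here had 4 tested, with a median log2 value of 0.046. GUSB, a lysosomal enzyme that trims hyaluronan fragments, averaged 37.6 ± 4.47 RPKM with GW0742 and 36.1 ± 3.72 RPKM with DMSO, and HEXA, a subunit of another such enzyme, 28.7 ± 0.71 and 27.1 ± 1.19 RPKM (edgeR adjusted p = 0.894 and 0.654). HYAL3, a further member of the hyaluronidase family, averaged 5.91 ± 1.54 RPKM with GW0742 and 6.0 ± 1.08 RPKM with DMSO (edgeR adjusted p = 0.932). In RPKM the groups of all these overlapped. CEMIP2, a membrane protein reported to cut hyaluronan in mice, stood at the top of this list by log2 value. It stood at 1.96, 2.20 and 2.11 RPKM in GW0742 replicates 1, 2 and 3, against 1.55, 1.30 and 1.33 RPKM in DMSO replicates 1, 2 and 3. The groups did not overlap, and the log2 fold change was 0.56 ± 0.13 (SE, edgeR adjusted p = 0.111). CEMIP2 was named after its values were seen.

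The UDP-sugar supply, which feeds the synthases with their 2 building blocks, had 12 tested genes and a median log2 value of -0.040. Its most abundant members were GPI, HK1 and NAGK, at 200.2 ± 8.02, 103 ± 1.68 and 76.6 ± 10.3 RPKM with GW0742 and 199 ± 3.59, 94.4 ± 2.31 and 75.0 ± 5.37 RPKM with DMSO. Log2 values in the list ran from -0.42 for GNPNAT1, an acetyltransferase of the N-acetylglucosamine branch (edgeR adjusted p = 0.175), to 0.35 for the hexokinase HK2 (edgeR adjusted p = 0.165). UGDH, which makes UDP-glucuronate, had a log2 value of -0.022 ± 0.065 (SE). In CPM, 2 of the 12 genes were lower without overlap, against 12.1% of all tested models, and 2 higher, against 11.4%.

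Among proteases that cut aggrecan and versican, 5 of 7 with a model were tested, with a median log2 value of 0.22. ADAMTS9 averaged 9.01 ± 0.51 RPKM with GW0742 and 9.97 ± 0.42 RPKM with DMSO, and ADAMTS4, an aggrecanase, 6.05 ± 0.47 and 5.10 ± 0.63 RPKM (edgeR adjusted p = 0.275 and 0.372). ADAMTS20 averaged 0.75 ± 0.08 RPKM with GW0742 and 1.52 ± 1.12 RPKM with DMSO, where DMSO replicate 2 alone stood at 2.82 RPKM. ADAMTS5, the main aggrecanase of mouse cartilage, was low, at 0.49, 0.38 and 0.40 RPKM in GW0742 replicates 1, 2 and 3, against 0.22, 0.24 and 0.26 RPKM in DMSO replicates 1, 2 and 3. The groups did not overlap (log2 0.79 ± 0.25 SE, edgeR adjusted p = 0.174). Log2 values in the list ran from -0.85 for ADAMTS20 (edgeR adjusted p = 0.324) to 0.99 for ADAMTS1 (edgeR adjusted p = 0.231). The ADAMTS1 groups overlapped, and those of ADAMTS20 overlapped in CPM but not in RPKM. ADAMTS5 and ADAMTS1 were named after their values were seen.

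Matrix and cytoskeletal partners of aggrecan, versican and CD44 had 12 tested genes and a median log2 value of 0.093. Tenascin-C (TNC), a matrix glycoprotein that binds the far end of hyalectans, stood at 649, 708 and 637 RPKM in GW0742 replicates 1, 2 and 3, against 567, 551 and 555 RPKM in DMSO replicates 1, 2 and 3. The groups did not overlap (log2 0.21 ± 0.06 SE, edgeR adjusted p = 0.127), and DESeq2 called TNC (adjusted p = 0.00425; it called 1.36% of its models higher). Fibrillin-1 (FBN1) averaged 399 ± 11.9 RPKM with GW0742 and 364 ± 19.4 RPKM with DMSO, and moesin (MSN), which ties CD44 to actin, 280 ± 5.62 and 295 ± 5.60 RPKM (edgeR adjusted p = 0.474 and 0.389). MSN lay lower in every GW0742 library than in any DMSO library. In CPM, 2 of the 12 genes were lower without overlap, against 12.1% of all tested models, and 3 higher, against 11.4%.

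**Figure D5:**
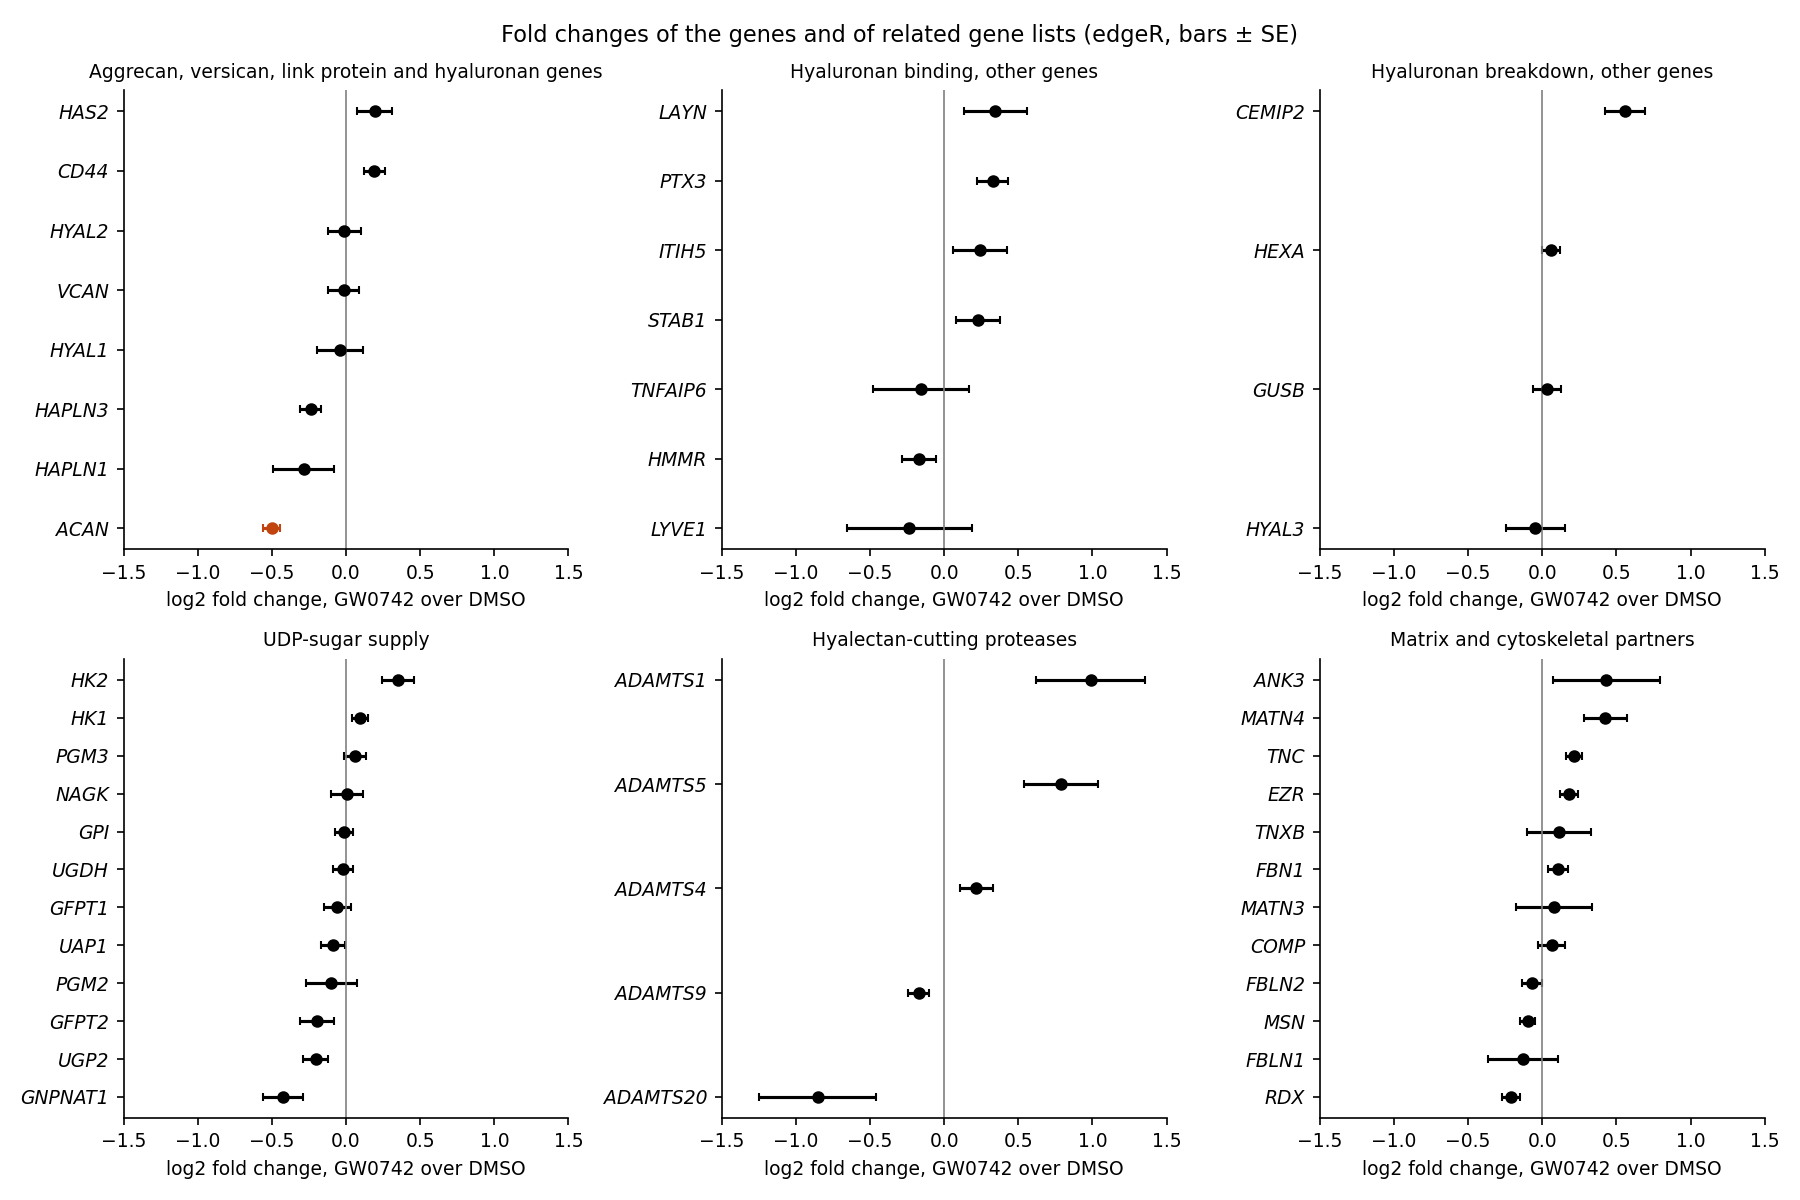
The log2 fold changes, GW0742 over DMSO (points, with bars for ± SE), of the tested genes of the group and of 5 related lists. ACAN, in orange at -0.50, is the single point with an adjusted p under 0.05.

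The models whose profile over the 6 libraries was most like that of ACAN are named as a description, since their choice by likeness fixes that they were lower with GW0742. Likeness was the root mean square difference in log2 CPM, each model centred on its own mean, among 6286 models with a symbol and at least 10 CPM. The nearest were RABGAP1L (0.046), PKDCC (0.062), LGALSL (0.065), RPL38 (0.070) and NGEF (0.072). Their log2 values ran from -0.51 (RABGAP1L, edgeR adjusted p = 0.0814) to -0.37 (NGEF, edgeR adjusted p = 0.0469).

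Summed marker levels of several cell types lay apart between the groups beside the fall of ACAN, although no tested marker passed in edgeR. The sums themselves were not tested, and the median log2 value of all tested models was -0.0015. The 12 chondrocyte markers with a model summed to 1350 to 1495 CPM in the GW0742 libraries, against 1592 to 1712 CPM in the DMSO libraries, and 6 of 10 tested had log2 values below 0. Most of that gap was COL11A1, a cartilage collagen, at 758 ± 49.2 CPM with GW0742 and 921 ± 44.1 CPM with DMSO. The 7 endothelial markers summed to 98.4 to 133 CPM with GW0742, against 63.0 to 88.6 CPM with DMSO, and 6 of 6 tested were above 0, with a median log2 value of 1.36. The 5 fibroblast markers with a model summed to 51288 to 56955 CPM with GW0742, against 57039 to 61967 CPM with DMSO, and 4 of 5 tested were below 0. These ranges nearly met, and most of that gap was COL1A2, at 35118 ± 2271 CPM with GW0742 and 39574 ± 2201 CPM with DMSO. The 6 muscle and smooth muscle markers summed to 6168 to 7821 CPM with GW0742, against 8124 to 8560 CPM with DMSO, and 4 of 5 tested were below 0. The 5 leukocyte markers, a cell type rich in CD44, summed to 31.3 to 32.8 CPM with GW0742, against 26.9 to 31.6 CPM with DMSO, and PTPRC, which defines leukocytes, stood at 0.11 ± 0.09 and 0.19 ± 0.03 RPKM. DESeq2 called 6 of these markers, and over all its models it called 1.36% higher and 1.56% lower. Higher were 2 of 6 tested endothelial markers, PECAM1 (log2 1.16 in edgeR, DESeq2 adjusted p = 0.00046) and KDR (log2 1.56, DESeq2 adjusted p = 0.0218). In RPKM the PECAM1 groups overlapped, with GW0742 replicate 3 at 6.35, below DMSO replicates 1 and 2 at 6.73 and 8.25. Lower were COL11A1, THY1, ACTA2 and CNN1 (log2 -0.29 to -0.28, DESeq2 adjusted p = 0.00413, 0.000197, 0.0036 and 0.000541). These were 1 of 10 tested chondrocyte, 1 of 5 fibroblast and 2 of 5 muscle and smooth muscle markers. No marker with a model was at 0 in all libraries. Their part in the values of ACAN, HAPLN3 and CD44 was not tested.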

How the data were processed

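RNA was measured in 6 libraries, 3 per group, of oligo(dT)-selected, randomly primed RNA read on an Ion Proton, per the labels' protocols. Per the file headers, the deposited library tables hold 2 quantities per gene model, both computed by the authors: estimated counts of reads, and RPKM. The build was Sscrofa10.2, per the submitters' processing notes. No aligner or counter is named in the sources used here. A table of symbols named 11147 models and matching RefSeq protein and gene identifiers (Sscrofa11.1) a further 687. No coordinates are printed, because the builds differ.

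Estimated counts were rounded to whole numbers, passed through filterByExpr (minimum count 10) and TMM scaling, and tested in edgeR 4.0.16 (quasi-likelihood, two-sided, Benjamini-Hochberg over 14146 models, R 4.3.3), GW0742 against DMSO. Intervals are from the t distribution of that fit. Alternatives used DESeq2 1.42.0, limma 3.58.1, other size factors, no filter, the replicate block and left-out libraries. An adjusted p threshold of 0.1 was also applied to the main fit. The tests were checked on simulated counts. Replicate libraries differed beyond sampling noise (chi-square over degrees of freedom 4.34 to 16.0), and each was counted once. For libraries of different groups the same measure was 10.1 to 18.0, so the ranges overlapped.

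The genes and lists were chosen with earlier results of these data known. All 10 genes are named whatever their values. From each list the text names every called gene and the 3 most abundant; any others were chosen after their values were seen. A gene of the lists is left out and not reported here.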

Additional observations from a re-analysis of the deposited data

How the results depend on the processing

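Of 104 alternative values of the 8 tested genes, 88 kept direction and side of the threshold, 6 lost the call and 10 changed sign. The 6 are all of ACAN, and the 10 belong to genes with log2 values near 0: VCAN (3), HYAL1 (1) and HYAL2 (6). Among the 13 alternatives per gene, the adjusted p threshold of 0.1 reuses the main values, so its direction could not change. The number of genes lower was 1. It was 0 in limma on log2(RPKM + 1) and 0 in limma on log2(RPKM + 0.1). It was also 0 with the replicate block (ACAN log2 -0.50, edgeR adjusted p = 0.099), where 0 of all models were called lower. Over left-out libraries it was 0 to 1, in fits with fewer samples. The cause of these differences was not tested. The number higher was 0 in every setting run. HYAL2 was -0.013, but 0.011 in limma on log2(RPKM + 1) and 0.012 on log2(RPKM + 0.1). Over left-out libraries HYAL2 ranged from -0.11 to 0.050, HYAL1 from -0.099 to 0.046 and VCAN from -0.14 to 0.079. The log2 ACAN to VCAN ratio ranged from -0.58 to -0.41 over left-out libraries, was -0.47 with estimated reads and -0.47 with the replicate block (exact sign-flip permutation p = 0.25, the smallest 3 pairs allow). Same-numbered libraries deviated from their group means with correlations of 0.0054, -0.032 and -0.10, so no shared deviation by number was seen. With 3 libraries per group, these values cannot show whether same-numbered cultures were set up together. The HAS2 share of all synthases and the summing of models were not run, because HAS3 has no model here and no gene of the group has several.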

Other observations

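A pair of models outside the group, ENSSSCG00000022097 and ENSSSCG00000029060, carries the protein name hyaluronan synthase 2-like. Both had the same deposited values, 0.18, 0.147 and 0.156 RPKM in GW0742 replicates 1, 2 and 3, against 0.066, 0.104 and 0.081 RPKM in DMSO replicates 1, 2 and 3. Models with identical values may share reads, so these values are uncertain, and with 2 to 4 reads per model and library neither was tested.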
